A study of Mus musculus with 15 samples.

Results

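Livers of germ-free (GF) mice, which are born and kept without living microorganisms, were compared between mice fed HF/HS, rich in fat and sucrose, and mice fed chow. The comparison was read from the sample titles and took 6 of the 15 libraries of the series, 3 GF mice on HF/HS and 3 GF mice on chow. All 6 were male C57BL/6J mice, fed their diet from 3 weeks of age and killed at 19 weeks. The HF/HS diet gave 44.6% of energy as fat, 40.6% as carbohydrate and 14.8% as protein, and the chow, a breeder formula, 23.7%, 53.2% and 23.1%. The diets thus differed in fat, carbohydrate and protein at once. Both were sterilized by irradiation and autoclaving, and the mice lived in isolators, with sterility checked by culture of faeces. Mice were caged together by colonization status and diet, so a cage effect and a diet effect cannot be told apart. The other 9 libraries came from conventionally raised (ConvR) mice on HF/HS and on chow and from conventionalized (ConvD) mice on chow, GF mice given caecal contents at 15 weeks of age, with 3 mice a group.

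The liver turns dietary sugar into fat through glycolysis, the cytosolic supply of acetyl-CoA and NADPH, and the enzymes of fatty acid synthesis, elongation and desaturation. The transcription factors SREBP-1c, which answers to insulin, and ChREBP, which answers to sugar phosphates, are known to drive these genes. Cholesterol synthesis is under SREBP-2, which is restrained when sterols are plentiful, and fatty acid oxidation is under the nuclear receptor PPAR alpha. Gut microbes are known to alter the supply of several signals to the liver, among them short-chain fatty acids and modified bile acids, and GF mice lack these products.

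The values are expected read counts per gene from stranded libraries of polyadenylated liver RNA, given below as CPM, counts scaled to a common library total. Totals were 17797480 to 20296412 counts in HF/HS libraries and 14737578 to 21219381 in chow libraries. Hepatocyte markers dominated each library, with Alb alone at 9.11% to 9.5% of counts in HF/HS mice and 6.01% to 6.86% in chow mice. Of 12377 genes tested, 1182 (9.55%) passed an adjusted p of 0.05 in edgeR's quasi-likelihood test, 507 higher (4.1%) and 675 lower (5.45%) on HF/HS. The list counts below are to be read against these shares, since a count near them says nothing particular about a list. All adjusted p-values below come from that test over all genes tested, log2 fold changes are HF/HS over chow with their SE, and 3 mice stand behind each group. The p-values measure the spread between mice that shared a group. Over all genes tested, the CPM ranges of the 2 groups did not overlap for 1893 higher (15.3%) and 2001 lower (16.2%) genes. Groups described below as apart are to be read against these shares. Chow mouse 1 stood apart: the mean log2 CPM of the immediate early genes described below was 2.23 to 2.57 in HF/HS mice, and 5.31, 3.65 and 2.63 in chow mice 1, 2 and 3. Without that library 696 genes passed, 336 higher and 360 lower. Without HF/HS mouse 1, 2 or 3 the count was 353, 343 or 301, and in a fit of the 6 GF libraries alone it was 259, 153 higher and 106 lower. On the deposited TPM, 623 genes passed, of which 404 were higher and 219 lower. Called list members beyond the 4 with the smallest adjusted p, and a few genes without a call, are named to give a group in full and were chosen after their values were seen. Of the 116 called genes that are named by the lists and rules used here, 47 kept their call whichever 1 of the 6 GF libraries was left out, 80 passed with a trend of fold change on gene length, described below, removed, and 56 passed in the fit of the GF libraries alone. Below, a library left out is named by diet and mouse number.

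Genes of fatty acid synthesis and remodelling were higher on HF/HS. Of 26 such genes, 14 rose and 2 fell, with a median log2 fold change of 0.93, against -0.01 over all genes tested. Scd1, the desaturase that makes monounsaturated fatty acids, had 17182, 16971 and 12237 CPM in HF/HS mice, against 729, 1273 and 1289 CPM in chow mice. Every HF/HS mouse lay above every chow mouse, 14.1-fold on the fitted scale (log2 fold change 3.82 ± 0.43, adjusted p = 0.000619). Per unit of gene length, in the deposited TPM, Scd1 averaged 4964 TPM in HF/HS mice and 339 TPM in chow mice, while Fasn averaged 108 and 52.9 TPM. With 1 GF library left out, 9 to 13 rose, 9 without HF/HS 1 or HF/HS 2.

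The early steps had smaller log2 fold changes than Scd1. Acly, which makes cytosolic acetyl-CoA from citrate, had 727, 665 and 531 CPM in HF/HS mice, against 269, 253 and 212 CPM in chow mice (log2 fold change 1.39 ± 0.19, adjusted p = 0.00205). Acaca, the acetyl-CoA carboxylase that commits carbon to fatty acids, had 192, 203 and 164 CPM in HF/HS mice, against 84.1, 85.6 and 82.3 CPM in chow mice (log2 fold change 1.15 ± 0.16, adjusted p = 0.00206). The chow mice lay within a narrow band, below all HF/HS mice. Its mitochondrial counterpart Acacb, whose product restrains fatty acid import, had 189, 181 and 135 CPM in HF/HS mice, against 36.5, 31.7 and 50.8 CPM in chow mice (log2 fold change 2.09 ± 0.28, adjusted p = 0.00167). Fasn, fatty acid synthase, had 799, 736 and 555 CPM in HF/HS mice, against 379, 375 and 303 CPM in chow mice, groups that did not overlap (log2 fold change 0.99 ± 0.24, adjusted p = 0.0246). Among genes that supply reducing power, Me1, malic enzyme, had 262, 315 and 247 CPM in HF/HS mice, against 107, 109.7 and 150.1 CPM in chow mice (log2 fold change 1.17 ± 0.29, adjusted p = 0.0246) and G6pdx, the entry to the pentose phosphate pathway, 8.15, 7.41 and 6.29 CPM in HF/HS mice, against 3.03, 4.28 and 4.496 CPM in chow mice (log2 fold change 0.88 ± 0.21, adjusted p = 0.0228). Thrsp, a lipogenic co-factor, also rose (1.57 ± 0.39, adjusted p = 0.0246). Mid1ip1, a partner of acetyl-CoA carboxylase, went the other way, with 33.9, 32.4 and 33.2 CPM in HF/HS mice, against 49.7, 70.7 and 61.1 CPM in chow mice (log2 fold change -0.87 ± 0.15, adjusted p = 0.00529), and so did Taldo1, transaldolase (-0.35 ± 0.09, adjusted p = 0.0334).

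Elongases and desaturases of long and polyunsaturated fatty acids rose beside Scd1. Elovl5, which elongates polyunsaturated fatty acids, had 1228, 1053 and 976 CPM in HF/HS mice, against 115, 239 and 239.8 CPM in chow mice (log2 fold change 2.45 ± 0.30, adjusted p = 0.000908), with chow mouse 1 the lowest. Elovl2, which works on longer substrates, had 987, 942 and 848 CPM in HF/HS mice, against 283, 365 and 306 CPM in chow mice (log2 fold change 1.54 ± 0.14, adjusted p = 0.000309), the smallest adjusted p of the list. The groups of both genes lay far apart. Fads1 and Fads2, the delta-5 and delta-6 desaturases, rose by 0.98 ± 0.18 and 1.24 ± 0.20 (adjusted p = 0.00725 and 0.00411), and Elovl6, which lengthens palmitate, by 1.01 ± 0.24 (adjusted p = 0.0201). Pnpla3, a lipid-droplet protein and a SREBP-1c target, had 18.3, 10.1 and 5.59 CPM in HF/HS mice, against 0.0688, 0.3999 and 0.2901 CPM in chow mice (log2 fold change 5.39 ± 0.69, adjusted p = 0.00109). It was barely detected on chow, where the 3 libraries held 1, 7 and 6 reads after rounding, against 361, 193 and 96 in HF/HS libraries. The transcription factors themselves did not pass. Srebf1, which encodes SREBP-1, had 295, 253 and 268 CPM in HF/HS mice, against 208, 293 and 299 CPM in chow mice (log2 fold change 0.03 ± 0.29, adjusted p = 0.966), and Mlxipl, which encodes ChREBP, 204, 222 and 205 CPM in HF/HS mice, against 181, 181 and 231 CPM in chow mice (log2 fold change 0.09 ± 0.13, adjusted p = 0.712), both with overlapping groups. Scd1, Acly, Acaca, Acacb, Mid1ip1, Elovl5, Elovl2, Fads1, Fads2 and Pnpla3 kept their calls whichever 1 of the 6 GF libraries was left out. Fasn (without HF/HS 1, HF/HS 2 or chow 3, adjusted p up to 0.0923) and Me1 (without any 1 but chow 3, adjusted p up to 0.0888) no longer passed with 1 library fewer. G6pdx (without HF/HS 1, HF/HS 2 or chow 1, adjusted p up to 0.0867) and Thrsp (without any 1 but chow 3, adjusted p up to 0.0819) lost the call with 1 library fewer. Taldo1 (without any 1 but chow 2, adjusted p up to 0.1296) and Elovl6 (without HF/HS 1, HF/HS 2 or chow 1, adjusted p up to 0.0825) did not pass with 1 library fewer. With the trend on gene length removed, Fasn, Taldo1 and Elovl6 did not pass (adjusted p = 0.0523 to 0.16).

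Glycolysis and fructose use rose in part. Of 25 genes in this list, 8 rose and 0 fell, with a median log2 fold change of 0.36. Those that rose include Pdk1 and Pdk2, which are regulators and not enzymes of glycolysis or fructose use. Between 4 and 7 rose when 1 GF library was left out, 4 without HF/HS 2 or HF/HS 3. Pklr, liver pyruvate kinase and a classical ChREBP target, had 389.6, 449 and 363 CPM in HF/HS mice, against 84.2, 106 and 111 CPM in chow mice (log2 fold change 1.99 ± 0.22, adjusted p = 0.000601). All HF/HS mice stood above all chow mice, with a fitted ratio of 3.98. Khk, ketohexokinase, which phosphorylates fructose, had 436, 489 and 456 CPM in HF/HS mice, against 318, 243 and 279 CPM in chow mice (log2 fold change 0.72 ± 0.13, adjusted p = 0.00711). Gpi1, Pdk1 and Pdk2 rose by 0.64 ± 0.10, 0.96 ± 0.22 and 0.45 ± 0.10 (adjusted p = 0.003799, 0.0178 and 0.0164), Gpi1 encoding glucose-6-phosphate isomerase and the Pdk genes kinases that switch off pyruvate dehydrogenase. Dak, the triokinase step of fructose use, and Gapdh rose by 0.36 ± 0.10 and 0.38 ± 0.11 (adjusted p = 0.0436 and 0.0496). Pklr, Khk and Gpi1 kept their calls whichever 1 of the 6 GF libraries was left out. Pdk1 (without HF/HS 2, HF/HS 3 or chow 1, adjusted p up to 0.0647) and Pdk2 (without HF/HS 2 or HF/HS 3, adjusted p up to 0.0724) no longer passed with 1 library fewer. Dak (without any 1 but chow 1, adjusted p up to 0.1496) and Gapdh (without any 1 of the 6, adjusted p up to 0.158) lost the call with 1 library fewer.

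**Figure D1:**
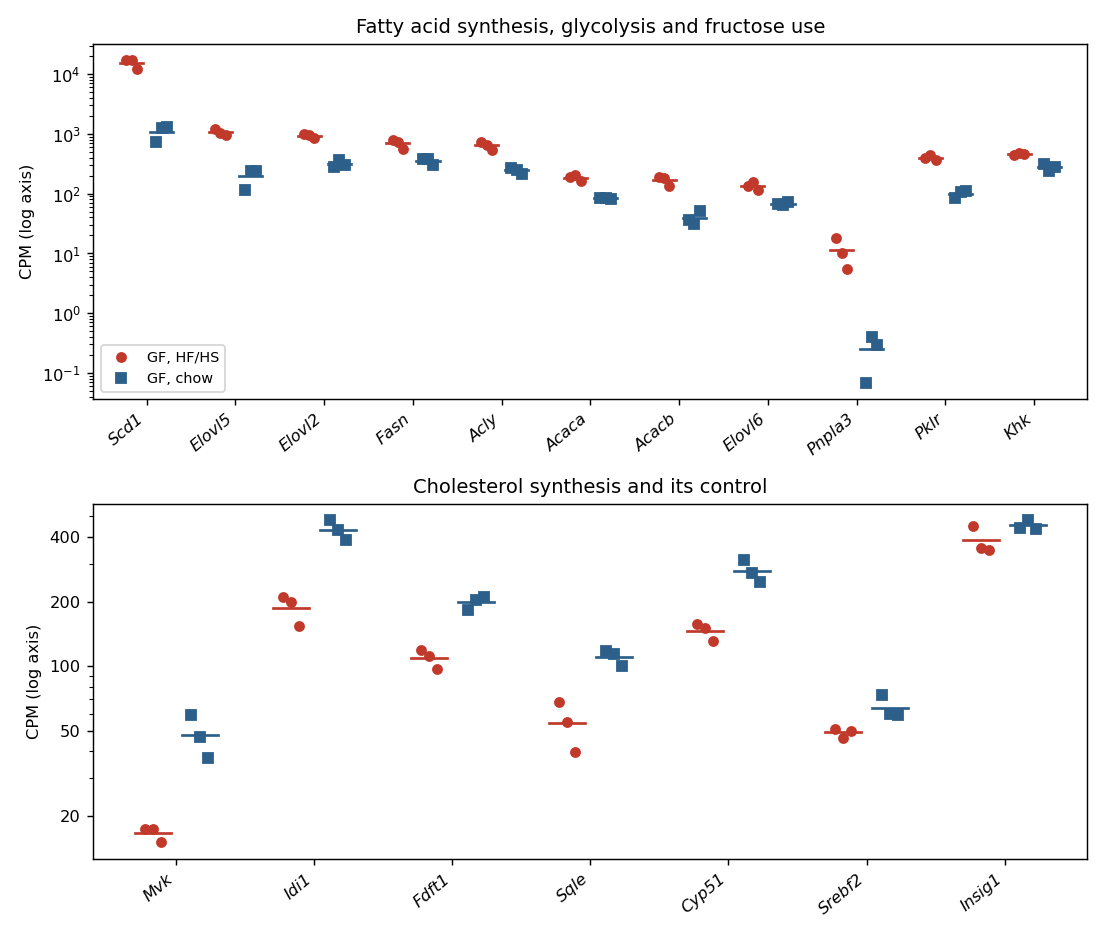
CPM (log axes) of single GF mice, HF/HS as circles left of chow as squares, with bars at the group means; the upper panel holds fatty acid synthesis, glycolysis and fructose genes and the lower panel cholesterol synthesis genes and their regulators. Scd1, Elovl5 and Pklr lie above chow in all 3 HF/HS mice, and Mvk and Idi1 below.

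Cholesterol synthesis genes were lower on HF/HS. Of 19 tested genes 0 rose and 6 fell, with a median log2 fold change of -0.56. The number that fell was 2 to 7 with 1 GF library left out, 2 without HF/HS 3 and 3 without HF/HS 2. Mvk, mevalonate kinase, had 17.4, 17.4 and 15.02 CPM in HF/HS mice, against 59.2, 46.7 and 37.4 CPM in chow mice (log2 fold change -1.52 ± 0.18, adjusted p = 0.000625). Each HF/HS mouse was below each chow mouse, and the fitted level was 2.87-fold lower. Idi1, the isomerase of the isoprenoid units, had 209, 199 and 154 CPM in HF/HS mice, against 481, 434 and 388 CPM in chow mice (log2 fold change -1.21 ± 0.26, adjusted p = 0.0137), and Fdft1, squalene synthase, 119, 111 and 97.2 CPM in HF/HS mice, against 182, 204 and 209.6 CPM in chow mice (log2 fold change -0.86 ± 0.18, adjusted p = 0.0134). Msmo1, the sterol-C4-methyl oxidase that the files list as Sc4mol, had 125, 118 and 114 CPM in HF/HS mice, against 234, 283 and 322 CPM in chow mice (log2 fold change -1.23 ± 0.19, adjusted p = 0.00306). For each of these genes the groups did not overlap. Cyp51 and Hsd17b7, 2 later enzymes, fell by 0.92 ± 0.21 and 0.51 ± 0.14 on the log2 scale (adjusted p = 0.0202 and 0.0363).

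Other sterol genes and their regulators gave few calls. Sqle, squalene epoxidase, had 67.9, 54.7 and 39.9 CPM in HF/HS mice, against 117, 114 and 100.3 CPM in chow mice, separate groups but no call (log2 fold change -1.03 ± 0.35, adjusted p = 0.082). Srebf2, which encodes SREBP-2, fell slightly, with 50.9, 46.2 and 50.01 CPM in HF/HS mice, against 72.96, 59.9 and 59.3 CPM in chow mice (log2 fold change -0.38 ± 0.10, adjusted p = 0.0347). Mylip, a ubiquitin ligase and LXR target, rose, with 16.4, 14.4 and 15.7 CPM in HF/HS mice, against 12.04, 10.6 and 7.54 CPM in chow mice (log2 fold change 0.64 ± 0.17, adjusted p = 0.0296). Of the 10 tested genes of SREBP regulation and lipoprotein receptor control, Mylip and Srebf2 were the called members. Mvk and Msmo1 kept their calls whichever 1 of the 6 GF libraries was left out. Idi1 (without HF/HS 3, adjusted p up to 0.0649) and Fdft1 (without HF/HS 2 or HF/HS 3, adjusted p up to 0.0618) no longer passed with 1 library fewer. Cyp51 (without any 1 HF/HS mouse or chow 1, adjusted p up to 0.0827) and Hsd17b7 (without any 1 but chow 3, adjusted p up to 0.137) lost the call with 1 library fewer. Srebf2 (without any 1 HF/HS mouse or chow 1, adjusted p up to 0.126) and Mylip (without any 1 HF/HS mouse or chow 3, adjusted p up to 0.0994) did not pass with 1 library fewer.

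Promoter windows of 5 of these genes are shown because lipogenic and sterol genes moved in opposite directions, and both sets are known SREBP targets. The windows run from 250 bases before to 50 after the RefSeq start in build GRCm38.p6, 5′ to 3′ on the gene's strand. Capitals mark matches, on either strand, to the NF-Y box CCAAT, a partner motif of SREBP, to the E-box CACGTG and to an SREBP element written TCACNCCAC.
Elovl5 (chr9:77917115-77917414, forward strand): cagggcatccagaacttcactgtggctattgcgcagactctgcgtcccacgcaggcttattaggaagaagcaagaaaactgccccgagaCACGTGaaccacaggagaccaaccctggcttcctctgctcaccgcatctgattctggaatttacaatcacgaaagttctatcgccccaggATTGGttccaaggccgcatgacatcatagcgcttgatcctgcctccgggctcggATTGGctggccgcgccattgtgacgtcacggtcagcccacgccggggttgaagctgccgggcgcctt
Pnpla3 (chr15:84167566-84167865, forward strand): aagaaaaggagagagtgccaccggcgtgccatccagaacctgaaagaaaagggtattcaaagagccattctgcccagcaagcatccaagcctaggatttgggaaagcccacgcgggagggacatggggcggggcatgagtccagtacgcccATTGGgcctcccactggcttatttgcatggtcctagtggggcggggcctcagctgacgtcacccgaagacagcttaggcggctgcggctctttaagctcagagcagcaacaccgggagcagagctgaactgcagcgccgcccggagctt
Fasn (chr11:120824498-120824797, reverse strand): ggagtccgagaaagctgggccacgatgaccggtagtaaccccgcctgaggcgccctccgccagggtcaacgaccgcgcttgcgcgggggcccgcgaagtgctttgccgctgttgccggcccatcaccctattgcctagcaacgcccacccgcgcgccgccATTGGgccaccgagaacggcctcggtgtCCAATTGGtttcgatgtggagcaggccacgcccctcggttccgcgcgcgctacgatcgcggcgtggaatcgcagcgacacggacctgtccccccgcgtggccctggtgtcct
Mvk (chr5:114444019-114444318, forward strand): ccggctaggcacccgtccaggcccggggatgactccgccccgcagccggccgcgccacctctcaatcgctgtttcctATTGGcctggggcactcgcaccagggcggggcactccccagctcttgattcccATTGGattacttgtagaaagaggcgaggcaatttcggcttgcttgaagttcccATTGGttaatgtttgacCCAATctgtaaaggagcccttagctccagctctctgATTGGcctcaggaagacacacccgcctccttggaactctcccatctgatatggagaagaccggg
Cyp51 (chr5:4104648-4104947, reverse strand): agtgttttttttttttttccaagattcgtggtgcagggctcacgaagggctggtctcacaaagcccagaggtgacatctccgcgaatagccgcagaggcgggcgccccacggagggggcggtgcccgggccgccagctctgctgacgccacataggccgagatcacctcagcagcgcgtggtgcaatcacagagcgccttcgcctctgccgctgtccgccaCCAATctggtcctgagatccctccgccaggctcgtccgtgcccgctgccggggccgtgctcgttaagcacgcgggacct
The Elovl5 window held 2 NF-Y boxes and 1 E-box, those of Pnpla3, Fasn and Mvk held 1, 3 and 5 NF-Y boxes, and that of Cyp51 1. In the Fasn window, 2 of the NF-Y matches lie on opposite strands and share bases. Over all 32851 windows of the same length, 37.4% held an NF-Y box, 7.15% the E-box and 1.24% the SREBP element, and matches to different motifs overlapped in 4 windows. Among the 29 windows of 22 fatty acid synthesis genes, 51.7% held an NF-Y box, 3 held an E-box and 1 the SREBP element. Among the 17 windows of 14 cholesterol synthesis genes, 76.5% held an NF-Y box, 3 held an E-box and 0 the SREBP element. The 5 windows shown all hold an NF-Y box and do not stand for the lists. The windows of Acaca, Elovl2, Elovl6, Fads2 and G6pdx, all higher on HF/HS, held none of these motifs. A match is a match of letters and shows no binding, and genes without a window, among them Scd1 and Fdft1, were not searched.

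Some genes of lipid storage and uptake passed, and their number varied with the library left out. Over all genes tested, 4.1% were called higher and 5.45% lower. Of 20 lipid droplet and PPAR gamma target genes, 3 rose and 1 fell (median 0.16). Leaving out 1 GF library gave 0 to 2 that rose, 0 without HF/HS 2 or HF/HS 3 and 1 without HF/HS 1, chow 1 or chow 2, and the median was 0.12 to 0.27. Plin4, a droplet coat protein, had 8.402, 5.15 and 5.18 CPM in HF/HS mice, against 2.75, 2.17 and 3.24 CPM in chow mice (log2 fold change 1.19 ± 0.35, adjusted p = 0.0462), and Cd36, a fatty acid transporter, 90.3, 81.98 and 106 CPM in HF/HS mice, against 32.4, 44.7 and 61.98 CPM in chow mice (log2 fold change 1.00 ± 0.29, adjusted p = 0.0451). Fabp4, a fatty acid binding protein of fat cells and macrophages, had 11.5, 15.97 and 17.3 CPM in HF/HS mice, against 9.15, 5.199 and 5.802 CPM in chow mice (log2 fold change 1.16 ± 0.25, adjusted p = 0.0136). For all 3 genes the groups were apart, with the widest chow spread in Cd36. Bscl2, seipin, fell by 0.32 ± 0.09 on the log2 scale (adjusted p = 0.0441). Cidec, which enlarges droplets and is strongly induced in fatty livers, stayed low, with 2.63, 1.37 and 1.397 CPM in HF/HS mice, against 1.72, 0.743 and 0.967 CPM in chow mice (log2 fold change 0.70 ± 0.84, adjusted p = 0.642). Plin2, the main hepatic droplet coat, had 674, 507 and 563 CPM in HF/HS mice, against 524, 455 and 506 CPM in chow mice (log2 fold change 0.23 ± 0.16, adjusted p = 0.392), and Pparg 8.76, 6.36 and 7.57 CPM in HF/HS mice, against 4.68, 8.51 and 7.74 CPM in chow mice (log2 fold change 0.11 ± 0.36, adjusted p = 0.884). The groups overlapped for these 3 genes.

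Of 20 triglyceride synthesis and lipase genes, 3 rose and 1 fell (median 0.07). In the 6 fits that each left out 1 GF library, 2 to 4 rose, and the median was 0.03 to 0.12, 0.12 without chow 1. Gpam, the first acyltransferase of glycerolipid synthesis, had 397, 338 and 317 CPM in HF/HS mice, against 163, 193 and 176 CPM in chow mice (log2 fold change 0.98 ± 0.18, adjusted p = 0.00744). Lipa, the lysosomal acid lipase, rose by 0.58 ± 0.15 (adjusted p = 0.0307), and the other called riser was Pnpla3. Angptl8, an insulin-responsive inhibitor of lipoprotein lipase listed as Gm6484, fell, with 18.2, 15.4 and 29.4 CPM in HF/HS mice, against 25.2, 78.2 and 94.6 CPM in chow mice (log2 fold change -1.66 ± 0.35, adjusted p = 0.0125). Its groups overlapped, since chow mouse 1 lay within the HF/HS range. Dgat2, which makes triglyceride from diglyceride, had 411, 426 and 453 CPM in HF/HS mice, against 441, 426 and 400.4 CPM in chow mice (log2 fold change 0.02 ± 0.10, adjusted p = 0.9001). Among 17 genes of fatty acid uptake and binding, 4 rose and 0 fell (median 0.14): Cd36, Fabp4, Acsl5, an acyl-CoA synthetase (0.60 ± 0.17, adjusted p = 0.0444), and Vldlr, a lipoprotein receptor (1.76 ± 0.45, adjusted p = 0.0287). With 1 GF library left out, 0 to 2 rose, 0 without HF/HS 2 or HF/HS 3, 1 without chow 1 and 2 without HF/HS 1, chow 2 or chow 3, and the median was 0.12 to 0.22, 0.22 without chow 1.

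Of 18 apolipoprotein and lipoprotein assembly genes, 3 rose and 1 fell (median 0.16). Between 2 and 3 rose when 1 GF library was left out, and the median was 0.04 to 0.21. Apoa4, an apolipoprotein that rises in fatty livers, had 436, 362 and 311 CPM in HF/HS mice, against 61.5, 36.5 and 33.5 CPM in chow mice (log2 fold change 3.08 ± 0.34, adjusted p = 0.000601). The HF/HS mice held 8.45-fold more, with no overlap. Apoc2, the activator of lipoprotein lipase, had 221, 206 and 199 CPM in HF/HS mice, against 114, 121 and 127 CPM in chow mice (log2 fold change 0.79 ± 0.12, adjusted p = 0.0038). Apoh rose by 0.35 ± 0.10 (adjusted p = 0.0385) and Apoc4 fell by 0.49 ± 0.14 on the log2 scale (adjusted p = 0.0477). Of 11 sterol efflux and esterification genes, 1 rose: Abcg1, a sterol exporter and LXR target, had 8.55, 7.04 and 7.28 CPM in HF/HS mice, against 3.85, 4.74 and 4.35 CPM in chow mice (log2 fold change 0.82 ± 0.14, adjusted p = 0.00545). Gpam, Apoa4, Apoc2 and Abcg1 kept their calls whichever 1 of the 6 GF libraries was left out. Plin4 (without any 1 of the 6, adjusted p up to 0.174) and Cd36 (without any 1 but chow 3, adjusted p up to 0.1405) no longer passed with 1 library fewer. Fabp4 (without HF/HS 2 or HF/HS 3, adjusted p up to 0.0592) and Bscl2 (without any 1 but chow 3, adjusted p up to 0.143) lost the call with 1 library fewer. Lipa (without any 1 HF/HS mouse or chow 1, adjusted p up to 0.1001) and Angptl8 (without HF/HS 1 or HF/HS 2, adjusted p up to 0.0614) did not pass with 1 library fewer. Acsl5 (without any 1 of the 6, adjusted p up to 0.123) and Vldlr (without HF/HS 2, HF/HS 3, chow 1 or chow 3, adjusted p up to 0.107) no longer passed with 1 library fewer. Apoh (without any 1 but chow 2, adjusted p up to 0.141) and Apoc4 (without any 1 but chow 2, adjusted p up to 0.164) lost the call with 1 library fewer. Plin4, Cd36, Bscl2, Acsl5, Vldlr and Apoc4 did not pass once the trend on gene length was removed (adjusted p = 0.0593 to 0.422).

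Fatty acid oxidation changed in a few genes rather than as a set. Of 30 oxidation and ketogenesis genes, 4 rose and 1 fell, with a median of 0.03, close to that of all genes. The number that rose was 2 to 5 with 1 GF library left out, 2 without HF/HS 1. Ppara, the receptor that drives this programme, had 383, 330.3 and 353 CPM in HF/HS mice, against 144, 195 and 216 CPM in chow mice (log2 fold change 0.94 ± 0.16, adjusted p = 0.00481). Cpt1a, the gate for fatty acid entry into mitochondria, had 497, 459.8 and 490.0 CPM in HF/HS mice, against 319.6, 315 and 263 CPM in chow mice (log2 fold change 0.69 ± 0.12, adjusted p = 0.00512). HF/HS mice exceeded chow mice without overlap in both genes. Fgf21, a fasting and sugar-responsive hormone, had 3.75, 2.79 and 2.096 CPM in HF/HS mice, against 1.03, 0.914 and 0.2901 CPM in chow mice, low counts throughout (log2 fold change 2.00 ± 0.50, adjusted p = 0.0247). Vnn1, a PPAR alpha target, had 76.3, 60.8 and 88.4 CPM in HF/HS mice, against 28.01, 31.8 and 33.9 CPM in chow mice (log2 fold change 1.26 ± 0.28, adjusted p = 0.0164), and Etfb, an electron carrier subunit, 211, 216 and 225 CPM in HF/HS mice, against 441, 264 and 297 CPM in chow mice (log2 fold change -0.62 ± 0.15, adjusted p = 0.0229). Of 16 genes listed here as microsomal and peroxisomal targets of PPAR alpha, 0 rose and 2 fell. Those that fell were Acot8 (-0.52 ± 0.12, adjusted p = 0.0181) and Cyp2b10. Cyp2b10 is also in the list of CAR and PXR targets and is described there as a CAR target, so its fall is not particular to this list. Leaving out 1 GF library gave 1 to 3 that fell, 1 without any 1 HF/HS mouse or chow 1, and the median was -0.20 to 0.24. Cyp4a14, a strongly induced fatty acid hydroxylase, had 196, 254 and 553 CPM in HF/HS mice, against 97.1, 184 and 247 CPM in chow mice and did not pass (log2 fold change 0.93 ± 0.65, adjusted p = 0.389). Ppara and Cpt1a kept their calls whichever 1 of the 6 GF libraries was left out. Fgf21 (without HF/HS 1, HF/HS 2 or chow 3, adjusted p up to 0.09303) and Vnn1 (without HF/HS 1 or HF/HS 3, adjusted p up to 0.06599) no longer passed with 1 library fewer. Etfb (without any 1 HF/HS mouse, adjusted p up to 0.0823) and Acot8 (without any 1 HF/HS mouse or chow 1, adjusted p up to 0.06496) lost the call with 1 library fewer. Removing the trend on gene length left Etfb and Acot8 without a call (adjusted p = 0.0687 to 0.0847).

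In bile acid synthesis, 1 of 16 genes rose and 3 fell (median -0.19). In the 6 fits that each left out 1 GF library, 0 to 3 fell, 0 without HF/HS 2 or HF/HS 3 and 1 without HF/HS 1 or chow 1. Cyp39a1, a 24-hydroxycholesterol 7-alpha-hydroxylase, had 12.7, 12.9 and 11.4 CPM in HF/HS mice, against 2.27, 3.48 and 1.31 CPM in chow mice (log2 fold change 2.40 ± 0.23, adjusted p = 0.000317), a 5.295-fold separation with no overlap. Cyp7b1, the oxysterol hydroxylase of the alternative pathway, had 208, 161 and 144 CPM in HF/HS mice, against 379, 381 and 490.0 CPM in chow mice (log2 fold change -1.29 ± 0.36, adjusted p = 0.0379), and Cyp2c70, which makes muricholic acids in mice, 475, 399 and 333 CPM in HF/HS mice, against 774, 720.2 and 866 CPM in chow mice (log2 fold change -0.97 ± 0.23, adjusted p = 0.0214). These 2 genes were lower in all HF/HS mice. Amacr, a racemase of side-chain oxidation, fell by 0.44 ± 0.12 on the log2 scale (adjusted p = 0.03601). Cyp7a1, the rate-limiting enzyme of the classical pathway, had 17.2, 25.1 and 20.3 CPM in HF/HS mice, against 20.03, 37.6 and 39.6 CPM in chow mice (log2 fold change -0.64 ± 0.30, adjusted p = 0.192), and Cyp8b1, which sets the share of cholic acid, 308, 282 and 351 CPM in HF/HS mice, against 204, 239.7 and 439 CPM in chow mice (log2 fold change 0.09 ± 0.24, adjusted p = 0.8496). Neither passed, and their groups overlapped. Of 15 bile acid transport and FXR genes, 2 rose: Slc10a1, the uptake transporter, had 724, 818 and 771 CPM in HF/HS mice, against 221, 489 and 455 CPM in chow mice (log2 fold change 0.99 ± 0.22, adjusted p = 0.0171), and Klb, the co-receptor for FGF15 and FGF21, rose by 0.51 ± 0.15 (adjusted p = 0.0471) with overlapping groups. Cyp39a1 kept its call whichever 1 of the 6 GF libraries was left out. Cyp7b1 (without any 1 but chow 2, adjusted p up to 0.135) and Cyp2c70 (without HF/HS 2 or HF/HS 3, adjusted p up to 0.0934) no longer passed with 1 library fewer. Amacr (without any 1 HF/HS mouse or chow 1, adjusted p up to 0.114) and Slc10a1 (without HF/HS 2 or HF/HS 3, adjusted p up to 0.0624) lost the call with 1 library fewer. Klb (without HF/HS 2, HF/HS 3, chow 2 or chow 3, adjusted p up to 0.192) did not pass with 1 library fewer. With the trend on gene length removed, Cyp7b1 and Klb did not pass (adjusted p = 0.0616 to 0.0749).

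Some genes of glucose output and storage passed. In gluconeogenesis, 3 of 15 rose and 1 fell (median 0.13). With the trend on gene length removed, 1 rose and 1 fell. Over all genes tested, 4.1% were called higher and 5.45% lower, so 1 lower call says nothing particular about this list. With 1 GF library left out, 0 to 4 rose, 0 without any 1 HF/HS mouse and 1 without chow 3, and the median was 0.08 to 0.37, 0.37 without chow 1. Fbp1, fructose bisphosphatase, had 798, 791 and 844 CPM in HF/HS mice, against 484, 556 and 655 CPM in chow mice (log2 fold change 0.52 ± 0.12, adjusted p = 0.01896), and Pcx, pyruvate carboxylase, 602, 569 and 607 CPM in HF/HS mice, against 507, 399 and 425 CPM in chow mice (log2 fold change 0.42 ± 0.12, adjusted p = 0.0411). Gcgr, the glucagon receptor, had 166, 168 and 169 CPM in HF/HS mice, against 274, 209.8 and 235 CPM in chow mice (log2 fold change -0.51 ± 0.09, adjusted p = 0.007403), lower in every HF/HS mouse, and Creb1 rose by 0.34 ± 0.09 (adjusted p = 0.0272). G6pc and Pck1, the enzymes at the 2 ends of the pathway, did not pass. Pck1 had 2239.8, 3115 and 2568 CPM in HF/HS mice, against 5457, 1369 and 1031 CPM in chow mice, and G6pc 753, 847 and 781 CPM in HF/HS mice, against 1264, 561 and 351 CPM in chow mice. Chow mouse 1 was the highest of the 6 for both genes and chow mouse 3 the lowest. In glycogen metabolism, 3 of 15 rose and 1 fell (median 0.15), and 1 rose and 0 fell with the trend on gene length removed. Between 0 and 3 rose when 1 GF library was left out, 0 without HF/HS 2 and 1 without HF/HS 1, HF/HS 3 or chow 3, and the median was 0.06 to 0.32, 0.32 without chow 1. Gbe1, the branching enzyme, had a log2 fold change of 0.84 ± 0.18, adjusted p = 0.0127. Ugp2, which makes UDP-glucose, had 0.71 ± 0.21, adjusted p = 0.0477, and Phkg2, a phosphorylase kinase subunit that fell, -0.44 ± 0.12, adjusted p = 0.0414. In insulin and IGF signalling, 2 of 21 rose and 1 fell (median 0.12). The number that rose was 0 to 3 with 1 GF library left out, 0 without HF/HS 1, HF/HS 2 or chow 2 and 1 without HF/HS 3, and the median was -0.03 to 0.16. Irs1, an insulin receptor substrate, had 46.7, 49.7 and 54.3 CPM in HF/HS mice, against 34.6, 25.2 and 33.5 CPM in chow mice (log2 fold change 0.69 ± 0.18, adjusted p = 0.0283), and Igfbp3 rose by 0.57 ± 0.15 (adjusted p = 0.0347).

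Enho, which encodes the secreted peptide adropin, had 5.11, 4.099 and 4.95 CPM in HF/HS mice, against 38.7, 27.8 and 18.8 CPM in chow mice (log2 fold change -2.58 ± 0.30, adjusted p = 0.000625). Its level was 5.999-fold lower on HF/HS and the groups lay wide apart. Among 22 hepatokines, 1 rose and 3 fell (median -0.11): Fgf21 was the one that rose, and Enho, Angptl8 and Hamp were those that fell. Over all genes tested, 4.1% were called higher and 5.45% lower. Leaving out 1 GF library gave 2 to 4 that fell, and the median was -0.18 to -0.05. Gcgr and Enho kept their calls whichever 1 of the 6 GF libraries was left out. Fbp1 (without any 1 HF/HS mouse, adjusted p up to 0.0729) and Pcx (without any 1 but chow 1, adjusted p up to 0.124) no longer passed with 1 library fewer. Creb1 (without any 1 HF/HS mouse or chow 3, adjusted p up to 0.0967) and Gbe1 (without HF/HS 2, adjusted p up to 0.0544) lost the call with 1 library fewer. Ugp2 (without any 1 but chow 2, adjusted p up to 0.151) and Phkg2 (without any 1 but chow 3, adjusted p up to 0.146) did not pass with 1 library fewer. Irs1 (without any 1 HF/HS mouse or chow 2, adjusted p up to 0.101) and Igfbp3 (without HF/HS 1, HF/HS 2, chow 1 or chow 2, adjusted p up to 0.129) no longer passed with 1 library fewer. Pcx, Creb1, Ugp2, Phkg2 and Irs1 did not pass once the trend on gene length was removed (adjusted p = 0.0635 to 0.197).

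Among detoxification genes, NRF2 and AHR targets gave lower calls on HF/HS, while the other 2 lists gave calls in both directions. Of 32 NRF2 target and glutathione S-transferase genes, 0 rose and 6 fell (median -0.30). In the 6 fits that each left out 1 GF library, 3 to 6 fell, 3 without HF/HS 1 or HF/HS 3, and the median was -0.40 to -0.20. Gstp1, a glutathione transferase that is higher in male mice, had 623, 568 and 484 CPM in HF/HS mice, against 1452, 1385 and 2046 CPM in chow mice (log2 fold change -1.54 ± 0.32, adjusted p = 0.0118), and Ephx1, microsomal epoxide hydrolase, 137, 145 and 155 CPM in HF/HS mice, against 271, 299 and 341 CPM in chow mice (log2 fold change -1.06 ± 0.22, adjusted p = 0.0114). Gpx1, glutathione peroxidase, had 889, 840.4 and 975 CPM in HF/HS mice, against 1367, 1259.7 and 1434 CPM in chow mice (log2 fold change -0.59 ± 0.11, adjusted p = 0.00782). All HF/HS mice were below all chow mice for these genes. Gss, Prdx1 and Gstt2 had log2 fold changes of -0.47 ± 0.08, -0.40 ± 0.11 and -0.80 ± 0.22 (adjusted p = 0.00672, 0.0347 and 0.0347). Of 8 AHR targets, 2 fell (median -0.24). Cyp1a2, a constitutive liver P450 under AHR, had 414, 484 and 494 CPM in HF/HS mice, against 953, 969 and 1017 CPM in chow mice (log2 fold change -1.08 ± 0.14, adjusted p = 0.00126), and Cyp1a1, its inducible relative, was low in both groups, with 0.506, 0.368 and 0.6404 CPM in HF/HS mice, against 0.895, 1.49 and 1.45 CPM in chow mice (log2 fold change -1.36 ± 0.29, adjusted p = 0.0143).

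Among 24 CAR and PXR targets, 3 rose and 3 fell (median -0.32). With 1 GF library left out, 0 to 3 rose, 0 without HF/HS 3 and 1 without HF/HS 2, chow 1 or chow 2, and the median was -0.43 to -0.16. Between 1 and 4 fell when 1 GF library was left out, 1 without HF/HS 1, HF/HS 2 or chow 3. Cyp2b10, the standard CAR target, held 3, 1 and 2 reads in HF/HS libraries, against 54, 53 and 297 in chow libraries, or 0.152, 0.0525 and 0.116 CPM in HF/HS mice, against 3.72, 3.03 and 14.4 CPM in chow mice (log2 fold change -5.98 ± 1.03, adjusted p = 0.00545). With so few reads on HF/HS its fold change is imprecise. Its close relative Cyp2b9, which female mice express more, went the other way, with 3.75, 16.8 and 59.3 CPM in HF/HS mice, against 0.275, 1.89 and 2.03 CPM in chow mice (log2 fold change 4.17 ± 1.15, adjusted p = 0.0364). HF/HS mouse 3 was far above the other two. Cyp2c29, Cyp2c55 and Cyp2c38 had log2 fold changes of -0.85 ± 0.21, -1.31 ± 0.38 and 1.36 ± 0.29 (adjusted p = 0.02403, 0.0473 and 0.0134), and Sult1d1 0.51 ± 0.14, adjusted p = 0.0422. Cyp3a11, the main PXR-responsive P450, had 826, 1004 and 995 CPM in HF/HS mice, against 355, 380.5 and 762 CPM in chow mice, separate groups without a call (log2 fold change 0.92 ± 0.32, adjusted p = 0.0864). Of 19 UDP-glucuronosyltransferases and sulfotransferases, 2 rose and 3 fell (median -0.18): Ugt1a5 rose (1.88 ± 0.40, adjusted p = 0.0136), as did Sult1a1 (0.49 ± 0.13, adjusted p = 0.0326), and Ugt2b37, Ugt2b35 and Ugt2b5 had -2.89 ± 0.56, -0.94 ± 0.23 and -0.74 ± 0.19 (adjusted p = 0.00892, 0.0247 and 0.0288). The number that fell was 1 to 3 with 1 GF library left out, 1 without any 1 HF/HS mouse or chow 3, and the median was -0.28 to -0.07. Leaving out 1 GF library gave 1 to 2 that rose, 1 without any 1 HF/HS mouse or chow 1. The estimation divides reads among near-identical genes, so single members of the Cyp2b, Cyp2c, Cyp3a, Ugt1a, Ugt2b and Gst families are uncertain.

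Growth hormone pulses set sex differences in the mouse liver, and these mice were all male. Of 22 male-biased genes, 0 rose and 3 fell (median -0.57), and of 9 tested female-biased genes, among 20 listed, 3 rose and 0 fell. The other female-biased genes were too low to test, so those tested had reads in at least some groups and cannot stand for the list. Among male-biased genes, in the 6 fits that each left out 1 GF library, 1 to 3 fell, 1 without HF/HS 3. Among female-biased genes, 1 to 2 rose in those fits, 1 without HF/HS 2, HF/HS 3, chow 1 or chow 3. The female-biased list, with untested members, summed to 177 to 378 CPM in HF/HS mice and 181 to 423 CPM in chow mice. Its summed level thus did not rise. Selenbp2, a male-biased selenium-binding protein, had 356, 198 and 161 CPM in HF/HS mice, against 2970.4, 1816 and 2378 CPM in chow mice (log2 fold change -3.32 ± 0.58, adjusted p = 0.00613). It was 10.02-fold lower with the groups apart. Cyp17a1, a steroid hydroxylase more abundant in female liver, had 18.6, 24.9 and 19.97 CPM in HF/HS mice, against 2.41, 2.91 and 1.74 CPM in chow mice (log2 fold change 3.18 ± 0.58, adjusted p = 0.007001), and Abcd2, a peroxisomal transporter, 16.8, 12.3 and 15.5 CPM in HF/HS mice, against 1.72, 7.598 and 1.84 CPM in chow mice (log2 fold change 1.99 ± 0.57, adjusted p = 0.0416). The other called members were Cyp7b1 and Gstp1, both lower, and Cyp2b9, higher. The genes named next are in neither of the sex-biased lists as drawn up here. Those lists need not hold every sex-biased gene. With male mice only, a sex bias of the genes named next could not be examined. Cyp2c40 and Cyp2c69, closely related P450s, had 3.39, 2.21 and 4.72 CPM in HF/HS mice, against 62.8, 27.8 and 31.9 CPM in chow mice and 0.354, 0.473 and 1.397 CPM in HF/HS mice, against 15.7, 9.66 and 5.85 CPM in chow mice (-3.57 ± 0.39, adjusted p = 0.000601, and -3.82 ± 0.52, adjusted p = 0.00177). Gpx1, Gss, Cyp1a2, Cyp2b10, Ugt1a5, Ugt2b37, Selenbp2, Cyp17a1, Cyp2c40 and Cyp2c69 kept their calls whichever 1 of the 6 GF libraries was left out. Gstp1 (without HF/HS 3, adjusted p up to 0.0575) and Ephx1 (without HF/HS 1, adjusted p up to 0.0522) no longer passed with 1 library fewer. Prdx1 (without any 1 but chow 1, adjusted p up to 0.128) and Gstt2 (without any 1 HF/HS mouse or chow 3, adjusted p up to 0.1298) lost the call with 1 library fewer. Cyp1a1 (without HF/HS 1 or HF/HS 2, adjusted p up to 0.06903) and Cyp2b9 (without any 1 but HF/HS 1, adjusted p up to 0.168) did not pass with 1 library fewer. Cyp2c29 (without HF/HS 1, HF/HS 2, chow 2 or chow 3, adjusted p up to 0.102) and Cyp2c55 (without any 1 HF/HS mouse or chow 3, adjusted p up to 0.1903) no longer passed with 1 library fewer. Cyp2c38 (without HF/HS 3, adjusted p up to 0.0616) and Sult1d1 (without any 1 but HF/HS 1, adjusted p up to 0.1696) lost the call with 1 library fewer. Sult1a1 (without any 1 but chow 3, adjusted p up to 0.104) and Ugt2b35 (without any 1 but chow 1, adjusted p up to 0.08603) did not pass with 1 library fewer. Ugt2b5 (without any 1 but chow 2, adjusted p up to 0.108) and Abcd2 (without any 1 but chow 2, adjusted p up to 0.123) no longer passed with 1 library fewer. Removing the trend on gene length left Prdx1, Gstt2, Cyp2c55 and Abcd2 without a call (adjusted p = 0.0648 to 0.115).

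Hamp, which encodes hepcidin, the hormone that blocks iron export into blood, fell further than any other of the 22 hepatokines. It had 15.3, 4.41 and 2.97 CPM in HF/HS mice, against 168, 276 and 178 CPM in chow mice (log2 fold change -4.77 ± 0.61, adjusted p = 0.00109). HF/HS values were 27.2-fold lower, and the nearest pair of mice still stood far apart. Of 19 metallothionein, zinc and iron genes, 0 rose and 4 fell (median -0.10). With 1 GF library left out, 1 to 4 fell, 1 without any 1 HF/HS mouse or chow 3, and the median was -0.19 to 0.03. Smad7, which restrains the BMP signal to Hamp, had 5.62, 3.89 and 4.83 CPM in HF/HS mice, against 9.02, 6.11 and 8.46 CPM in chow mice (log2 fold change -0.72 ± 0.21, adjusted p = 0.04403), and Ftl1, ferritin light chain, 1652, 1678 and 1753 CPM in HF/HS mice, against 2312, 2416 and 3055 CPM in chow mice (log2 fold change -0.61 ± 0.15, adjusted p = 0.0243). Hfe, an iron sensor, fell by 0.32 ± 0.08 on the log2 scale (adjusted p = 0.0247). Inflammation is also known to raise Hamp. Of 32 acute phase genes 0 rose and 2 fell (median -0.08), Hamp itself and Socs3 (-2.80 ± 0.81, adjusted p = 0.0448). Saa2, a serum amyloid that rises in inflammation, had 8.81, 9.56 and 8.03 CPM in HF/HS mice, against 12.6, 5.03 and 6.48 CPM in chow mice (log2 fold change 0.15 ± 0.82, adjusted p = 0.933). It was at a low level in both groups. Why Hamp was lower on HF/HS was not tested. Hamp kept its call whichever 1 of the 6 GF libraries was left out. Smad7 (without any 1 but chow 2, adjusted p up to 0.162) and Ftl1 (without any 1 HF/HS mouse or chow 3, adjusted p up to 0.0876) no longer passed with 1 library fewer. Hfe (without any 1 HF/HS mouse or chow 3, adjusted p up to 0.0937) and Socs3 (without any 1 HF/HS mouse or chow 1, adjusted p up to 0.256) lost the call with 1 library fewer. With the trend on gene length removed, Ftl1, Hfe and Socs3 did not pass (adjusted p = 0.0628 to 0.0923).

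Immediate early genes, which switch on within minutes of many stimuli, were lower on HF/HS. Of 26 genes, 0 rose and 10 fell (median -1.30). Fos had 1.37, 2.15 and 1.34 CPM in HF/HS mice, against 129, 28.9 and 5.95 CPM in chow mice (log2 fold change -5.06 ± 0.92, adjusted p = 0.00716), and Egr1 10.1, 7.99 and 8.03 CPM in HF/HS mice, against 302, 109 and 54.2 CPM in chow mice (log2 fold change -4.15 ± 0.59, adjusted p = 0.00228). The HF/HS mice lay close together, while the chow mice differed widely, with mouse 1 the highest. Fosb had 0.253, 0.473 and 0.407 CPM in HF/HS mice, against 50.8, 13.8 and 1.93 CPM in chow mice (log2 fold change -5.84 ± 1.01, adjusted p = 0.00545), and Junb 12.3, 12.3 and 11.9 CPM in HF/HS mice, against 222, 41.9 and 19.6 CPM in chow mice (log2 fold change -2.95 ± 0.79, adjusted p = 0.0338). Btg2, an antiproliferative early gene, had 12.96, 12.3 and 14.5 CPM in HF/HS mice, against 251, 65.8 and 22.4 CPM in chow mice (log2 fold change -3.09 ± 0.72, adjusted p = 0.0203), and Ier2 10.2, 11.6 and 13.97 CPM in HF/HS mice, against 113, 32.96 and 31.3 CPM in chow mice (log2 fold change -2.31 ± 0.38, adjusted p = 0.00481). Chow mouse 1 was again the highest for all 4 genes. Jun, Myc, Atf3 and Egr2 were the other members that fell, Atf3 and Egr2 with overlapping groups. Without chow mouse 1, 4 genes fell and the median was -0.43. Between 4 and 15 fell when 1 GF library was left out, 4 without any 1 HF/HS mouse or chow 1, and the median was -1.78 to -0.43, -0.43 without chow 1. DESeq2 called 13 members and limma-voom 2. Tchh, trichohyalin, was highest in chow mouse 1 as well, with 0.354, 0.105 and 0.407 CPM in HF/HS mice, against 22.2, 3.31 and 1.06 CPM in chow mice (log2 fold change -4.89 ± 1.14, adjusted p = 0.0199). What set chow mouse 1 apart was not tested. Fos, Egr1, Fosb and Ier2 kept their calls whichever 1 of the 6 GF libraries was left out. Junb (without any 1 HF/HS mouse or chow 1, adjusted p up to 0.216) and Btg2 (without any 1 HF/HS mouse or chow 1, adjusted p up to 0.0866) no longer passed with 1 library fewer. Jun (without any 1 HF/HS mouse or chow 1, adjusted p up to 0.184) and Myc (without any 1 HF/HS mouse or chow 1, adjusted p up to 0.0974) lost the call with 1 library fewer. Atf3 (without any 1 HF/HS mouse or chow 1, adjusted p up to 0.128) and Egr2 (without any 1 HF/HS mouse or chow 1, adjusted p up to 0.128) did not pass with 1 library fewer. Tchh (without any 1 HF/HS mouse or chow 1, adjusted p up to 0.0833) no longer passed with 1 library fewer. Junb did not pass once the trend on gene length was removed (adjusted p = 0.05299).

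**Figure D2:**
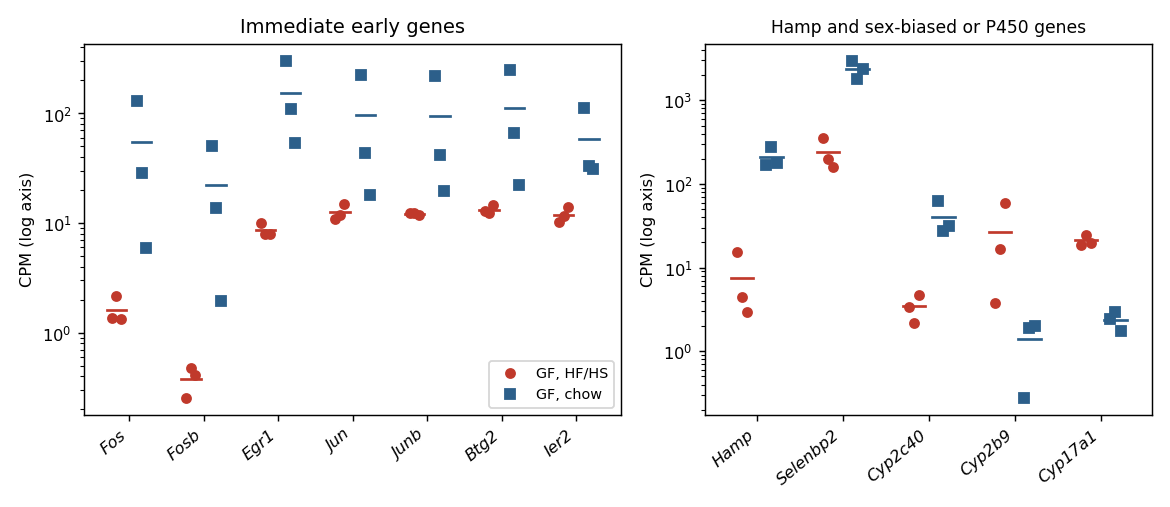
CPM (log axes) of single GF mice for immediate early genes (left) and for Hamp, sex-biased and P450 genes (right), HF/HS as circles left of chow as squares, with bars at the group means. The HF/HS mice cluster tightly for the early genes while the chow mice spread, with mouse 1 highest; for Hamp all 3 HF/HS mice, at 2.97 to 15.3 CPM, lie below all chow mice, at 168 to 276 CPM.

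In the integrated stress response, 3 of 23 rose and 2 fell (median 0.21). The number that rose was 1 to 3 with 1 GF library left out, 1 without HF/HS 2 or HF/HS 3, and the median was 0.00 to 0.26. Leaving out 1 GF library gave 1 to 3 that fell, 1 without HF/HS 1 or HF/HS 2. Asns, asparagine synthetase, had 1.11, 0.841 and 0.6404 CPM in HF/HS mice, against 2.68, 4.68 and 7.69 CPM in chow mice (log2 fold change -2.54 ± 0.49, adjusted p = 0.00895), and Atf4, the factor that drives it, 79.4, 76.9 and 85.6 CPM in HF/HS mice, against 170.1, 124 and 117 CPM in chow mice (log2 fold change -0.77 ± 0.16, adjusted p = 0.0141). Sesn2, a stress-induced regulator, rose with separate groups, 7.74, 8.62 and 9.84 CPM in HF/HS mice, against 5.23, 4.399 and 6.24 CPM in chow mice (log2 fold change 0.72 ± 0.14, adjusted p = 0.0103). Vldlr and Fgf21, given above, were the other risers. Among endoplasmic reticulum chaperones, 1 of 24 rose and 2 fell (median -0.29): Sdf2l1 had 25.6, 25.9 and 25.1 CPM in HF/HS mice, against 95.3, 45.4 and 45.8 CPM in chow mice (log2 fold change -1.28 ± 0.29, adjusted p = 0.01697), Sec61b, a translocon subunit, -0.44 ± 0.08, adjusted p = 0.00895, and Herpud1, a degradation factor, 0.84 ± 0.24, adjusted p = 0.0433. In the 6 fits that each left out 1 GF library, 1 to 6 fell, 1 without any 1 HF/HS mouse or chow 1, 4 without chow 2 and 6 without chow 3, and the median was -0.38 to -0.05, -0.05 without chow 1. Chow mouse 1 stood apart in this list too, whose members summed to 7150.1, 7737 and 7497 CPM in HF/HS mice, against 11863, 7737 and 7122 CPM in chow mice. Asns and Sec61b kept their calls whichever 1 of the 6 GF libraries was left out. Atf4 (without HF/HS 1 or HF/HS 2, adjusted p up to 0.0614) and Sesn2 (without HF/HS 3, adjusted p up to 0.0547) no longer passed with 1 library fewer. Sdf2l1 (without any 1 HF/HS mouse or chow 1, adjusted p up to 0.06297) and Herpud1 (without any 1 but chow 1, adjusted p up to 0.1696) lost the call with 1 library fewer. Removing the trend on gene length left Sec61b without a call (adjusted p = 0.293).

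Ribosomal protein genes were slightly lower on HF/HS. Of 76 genes, 0 rose and 42 fell, with a median log2 fold change of -0.35, and the mean log2 CPM of the list was 7.04, 7.212 and 6.999 in HF/HS libraries, against 7.495, 7.274 and 7.465 in chow libraries. With 1 GF library left out, 20 to 42 fell, 20 without HF/HS 3 and 21 without HF/HS 1. Rplp0, a stalk protein, had 341, 338 and 327 CPM in HF/HS mice, against 498, 418 and 438 CPM in chow mice (log2 fold change -0.43 ± 0.09, adjusted p = 0.0113). Gene length moved with this result: the rank correlation of a gene's expression, relative to its mean over the libraries, with its length was 0.0941 to 0.215 in HF/HS libraries and -0.341 to -0.154 in chow libraries. With the trend on gene length removed, 7 ribosomal genes fell and the median was -0.13, and over all genes 660 passed, 329 higher and 331 lower. On the deposited TPM, 25 fell. In the respiratory chain, 6 of 42 genes fell and 0 rose (median -0.15), and with the length trend removed 1 fell and 1 rose (median 0.016). Without that removal, between 2 and 8 fell when 1 GF library was left out, 2 without any 1 HF/HS mouse and 3 without chow 1 or chow 3. ConvD mice, also on chow, had length correlations of 0.0779 to 0.196. Their ribosomal means were 7.061, 7.108 and 7.056, within the range of the GF HF/HS libraries. In ConvR libraries the correlations were 0.0891 to 0.277 on HF/HS and -0.312 to 0.0178 on chow. Positive correlations were thus also seen in livers on chow. What the length trend comes from was not tested. The fatty acid synthesis list had 12 higher and 1 lower calls with the trend removed (median 0.86), and cholesterol synthesis 6 lower calls (median -0.57). Rplp0 (without HF/HS 3, adjusted p up to 0.0567) no longer passed with 1 library fewer. With the trend on gene length removed, Rplp0 did not pass (adjusted p = 0.0658).

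**Figure D3:**
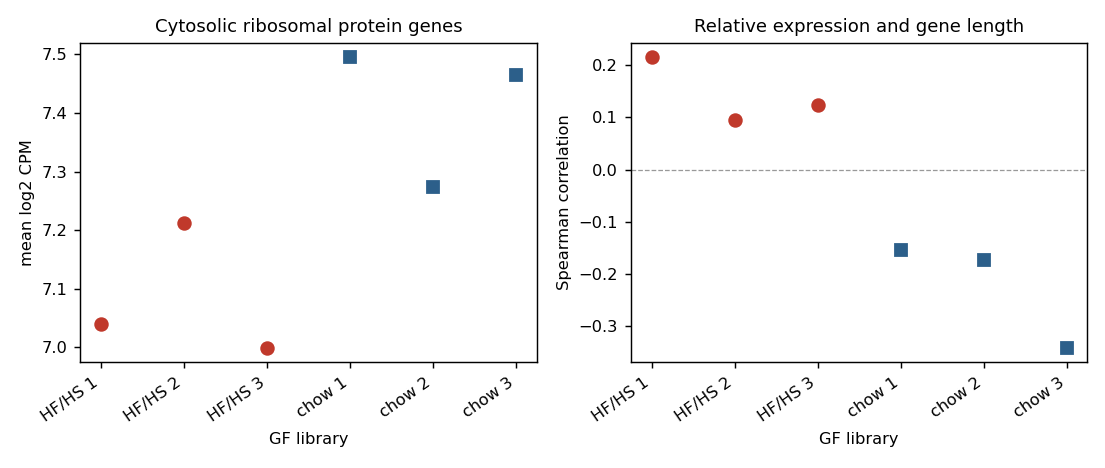
Mean log2 CPM of the cytosolic ribosomal protein genes (left) and Spearman correlation of relative expression with gene length (right) in each GF library, HF/HS as circles left of chow as squares. The GF HF/HS libraries lie at or below 7.212 and the GF chow libraries at or above 7.274 on the left. On the right, the correlations are positive in GF HF/HS and negative in GF chow libraries. The ConvD libraries, on chow and not plotted, also had positive correlations.

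Markers of other liver cells were checked for changes in cell make-up. Bulk RNA cannot tell fewer cells of a type from less RNA per cell. Endothelial markers were the list with the most calls: 4 of 6 rose and 0 fell (median 0.47), with a summed level of 239 to 269 CPM in HF/HS mice and 171 to 214 CPM in chow mice. The number that rose was 1 to 3 with 1 GF library left out, 1 without any 1 but chow 2. Cdh5, VE-cadherin, had 40.8, 34.3 and 38.7 CPM in HF/HS mice, against 25.1, 28.4 and 23.9 CPM in chow mice (log2 fold change 0.56 ± 0.10, adjusted p = 0.00669), Lyve1, of sinusoidal endothelium, 12.8, 13.2 and 9.896 CPM in HF/HS mice, against 5.92, 5.43 and 3.96 CPM in chow mice (log2 fold change 1.24 ± 0.36, adjusted p = 0.0431), and Stab2 and Pecam1 rose by 0.48 ± 0.12 and 0.47 ± 0.13 (adjusted p = 0.0232 and 0.03904). Cd9 was the only marker of 6 for recruited macrophages that passed (0.72 ± 0.20, adjusted p = 0.0384). No marker passed for hepatocytes, cholangiocytes, Kupffer cells, neutrophils, T and NK cells, B and plasma cells, stellate cells and fibroblasts, red blood cells or exocrine pancreas, in edgeR, out of 6, 5, 11, 3, 4, 5, 9, 3 and 1 tested. At an unadjusted p below 0.05 stood 2 cholangiocyte, 1 neutrophil and 1 red cell markers and 0 of the others, limma-voom called 0 and DESeq2 1 marker of each of these 3 types. Summed neutrophil markers were 0.9896 to 1.42 CPM in HF/HS mice and 1.21 to 7.91 CPM in chow mice, highest in chow mouse 1. As for endothelium, the sums of 2 further types lay apart by diet. Hepatocyte markers summed to 118219 to 124681 CPM in HF/HS mice and 83478 to 96198 CPM in chow mice. Exocrine pancreas markers summed to 26.8 to 32.7 CPM in HF/HS mice and 41.1 to 42.3 CPM in chow mice. Adipocyte markers were all too low to test, with a sum of 0 to 0.175 CPM in HF/HS mice and 0 to 0.114 CPM in chow mice and Plin1 at 0 in all 6 libraries. Fabp4 and Cfd, which fat cells express, were higher on HF/HS. Cfd, complement factor D, had 11.5, 3.15 and 3.67 CPM in HF/HS mice, against 0.826, 0.229 and 0.532 CPM in chow mice (log2 fold change 3.56 ± 0.73, adjusted p = 0.0113). Whether fat tissue took part in these changes was not tested. Cdh5 kept its call whichever 1 of the 6 GF libraries was left out. Lyve1 (without any 1 of the 6, adjusted p up to 0.122) and Stab2 (without any 1 but chow 2, adjusted p up to 0.09199) no longer passed with 1 library fewer. Pecam1 (without any 1 but chow 2, adjusted p up to 0.137) and Cd9 (without any 1 HF/HS mouse or chow 3, adjusted p up to 0.1205) lost the call with 1 library fewer. Cfd (without HF/HS 1, adjusted p up to 0.0522) did not pass with 1 library fewer. Lyve1 and Pecam1 did not pass once the trend on gene length was removed (adjusted p = 0.0608 to 0.0653).

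Several other lists held few calls or none. Among genes for breaking down amino acids and making urea, 1 of 44 rose and 2 fell (median -0.094): Uroc1, of histidine breakdown (0.39 ± 0.11, adjusted p = 0.0466), Oat, ornithine aminotransferase (-0.48 ± 0.13, adjusted p = 0.0345), and Ivd, of leucine breakdown (-0.44 ± 0.11, adjusted p = 0.0272). In the methionine cycle, transsulfuration and taurine, 0 of 19 rose and 1 fell (median -0.064), the faller being Cth, which makes cysteine (-0.80 ± 0.21, adjusted p = 0.0326). In complement and coagulation, 2 of 38 rose and 0 fell, Cfd and F5 (0.54 ± 0.15, adjusted p = 0.0401). That is near the 4.1% of all genes tested that were called higher. No gene passed among 33 interferon response, 8 MHC class II, 19 clock and 20 proliferation genes in edgeR, with medians of -0.054, 0.15, 0.22 and 0.0018. At an unadjusted p below 0.05 there were 4, 0, 2 and 1 genes of these lists, limma-voom called 0 in each, and DESeq2 called 2 interferon response genes and 0 in the other 3. When 1 GF library was left out, 0 to 4 interferon genes rose, the most without chow 3, and 0 to 3 fell, the most without chow 2, while clock genes gave at most 2 higher calls. Uroc1 (without any 1 of the 6, adjusted p up to 0.154) and Oat (without any 1 of the 6, adjusted p up to 0.141) no longer passed with 1 library fewer. Ivd (without any 1 but chow 2, adjusted p up to 0.1002) and Cth (without HF/HS 1, HF/HS 2, chow 1 or chow 3, adjusted p up to 0.129) lost the call with 1 library fewer. F5 (without any 1 but chow 2, adjusted p up to 0.119) did not pass with 1 library fewer. Removing the trend on gene length left Uroc1, Oat, Cth and F5 without a call (adjusted p = 0.0508 to 0.0749).

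Outside the lists, the rule for the largest changes named 4 more risers. Chrna4, an acetylcholine receptor subunit, had 23.3, 26.2 and 10.3 CPM in HF/HS mice, against 1.03, 0.457 and 1.26 CPM in chow mice (log2 fold change 4.43 ± 0.69, adjusted p = 0.0038), and Rgs16, a regulator of G protein signalling, 53.5, 107 and 40.9 CPM in HF/HS mice, against 6.47, 4.28 and 1.74 CPM in chow mice (log2 fold change 4.05 ± 0.65, adjusted p = 0.00418). Both were low in all chow mice and higher in each HF/HS mouse. Mfsd2a, a transporter of lysophosphatidylcholine that carries the omega-3 fatty acid DHA, had 42.2, 85.7 and 47.6 CPM in HF/HS mice, against 26.6, 7.77 and 1.89 CPM in chow mice (log2 fold change 2.32 ± 0.65, adjusted p = 0.0399), with a wide chow spread, and Nipal1, a magnesium transporter relative, 4.56, 10.4 and 10.9 CPM in HF/HS mice, against 0.551, 1.26 and 3.05 CPM in chow mice (log2 fold change 2.34 ± 0.64, adjusted p = 0.0364). Chrna4 and Rgs16 kept their calls whichever 1 of the 6 GF libraries was left out. Mfsd2a (without any 1 but chow 1, adjusted p up to 0.137) and Nipal1 (without any 1 but chow 3, adjusted p up to 0.114) no longer passed with 1 library fewer. With the trend on gene length removed, Mfsd2a and Nipal1 did not pass (adjusted p = 0.0519 to 0.0575).

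**Figure D4:**
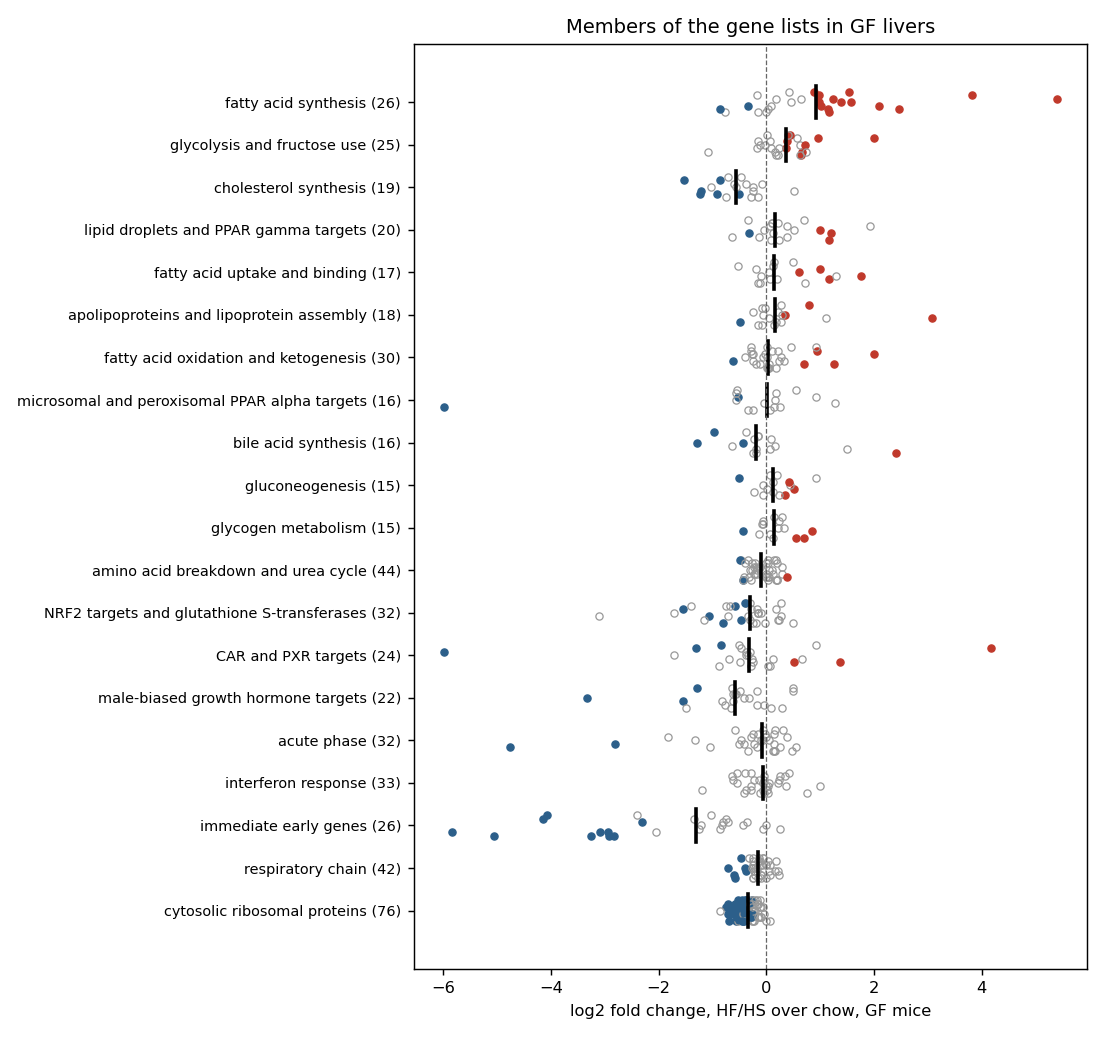
Log2 fold changes of HF/HS over chow in GF mice for the tested members of 20 gene lists (number tested in brackets), each point 1 gene, filled where it passed an adjusted p of 0.05 (red higher, blue lower) and open where it did not, with black bars at the medians. Fatty acid synthesis has its median at 0.93 and cholesterol synthesis at -0.56, and ribosomal genes form a tight cluster with a median of -0.35.

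The same diets were compared in ConvR mice, which have a gut microbiota, to ask whether the GF response differed. In ConvR mice 1802 of the 12377 genes passed (14.6%), 836 higher (6.75%) and 966 lower (7.8%). Leaving out ConvR HF/HS mouse 2 gave 984 genes, leaving out ConvR chow mouse 1 gave 1117, and dropping ConvR chow mouse 2 gave 1052. The count was 344 when both of those chow mice were dropped, which leaves a single ConvR chow mouse. On TPM it was 6100, 5831 higher and 269 lower, and without normalization factors 3238, 2747 higher and 491 lower. The GF and ConvR comparisons share no library. Of the 507 genes higher in GF mice, 230 (45.4%) were also called higher in ConvR mice, where they made up 27.5% of the higher calls, and of the 675 lower genes 273 (40.4%) were called lower in ConvR mice, 28.3% of the lower calls there. In the test of the difference itself, GF effect against ConvR effect, no gene passed in edgeR (0%), 1573 had an unadjusted p below 0.05, and limma-voom also called 0, while DESeq2 called 150, limma-voom with sample weights 286 and limma on TPM 1192. The edgeR test of the difference called 436 genes without ConvR chow 3 and 21 without ConvR HF/HS 3. No gene is therefore given as particular to GF mice.

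Fatty acid synthesis held 14 higher calls in GF mice and 15 in ConvR mice. Scd1 had a log2 fold change of 3.82 ± 0.43 in GF mice and 3.01 ± 0.41 in ConvR mice (adjusted p = 0.000582), and Elovl2 had a log2 fold change of 1.54 ± 0.14 in GF mice and 1.48 ± 0.14 in ConvR mice (adjusted p = 7.01e-05), with unadjusted p-values of the difference of 0.1597 and 0.752. The cholesterol list had 6 lower calls in GF mice and 14 in ConvR mice, with medians of -0.56 and -0.88. In fatty acid oxidation and ketogenesis 4 genes rose in GF mice and 18 in ConvR mice, with medians of 0.03 and 0.51. In lipid droplets and PPAR gamma targets the counts were 3 and 9. Dropping ConvR chow mice 1 and 2 changed the ConvR counts to 5 higher in fatty acid synthesis, 5 lower in cholesterol synthesis, 4 higher in oxidation and ketogenesis and 3 higher among lipid droplet genes. Cidec had a log2 fold change of 0.70 ± 0.84 in GF mice and 4.30 ± 0.67 in ConvR mice (adjusted p = 0.00133). Without ConvR chow 1 and 2 its ConvR value was 3.29 ± 0.94 and did not pass (adjusted p = 0.0829). Its difference had an unadjusted p of 0.00576 and an adjusted p of 0.238.

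The smallest p-values of the difference fell just short of the threshold. Saa2 had a log2 fold change of 0.15 ± 0.82 in GF mice and -7.95 ± 1.00 in ConvR mice (adjusted p = 0.000306), with a difference of 8.10 ± 1.22 (adjusted p = 0.0503). In GF mice 2 of the 32 acute phase genes fell, and in ConvR mice 28 of 32 acute phase genes fell in the full set and 5 without ConvR chow 1 and 2. ConvR HF/HS mice had 22.7, 53.8 and 18.1 CPM of Saa2, against 9887, 12793 and 695 CPM in ConvR chow mice, with chow mice 1 and 2 far above mouse 3. Without those 2 the ConvR log2 fold change of Saa2 was -4.47 ± 0.61 (adjusted p = 0.00659). Sulf2 is an extracellular sulfatase and Ndrg1 a stress-response gene. Sulf2 had a log2 fold change of 0.34 ± 0.25 in GF mice and 2.56 ± 0.27 in ConvR mice (adjusted p = 0.000131). Ndrg1 had a log2 fold change of -0.76 ± 0.15 in GF mice and 0.44 ± 0.15 in ConvR mice (adjusted p = 0.0595). The adjusted p of the difference was 0.0503 for Sulf2 and 0.0503 for Ndrg1. The opposite signs of Cyp3a11, 0.92 ± 0.32 in GF mice and -1.40 ± 0.32 in ConvR mice (adjusted p = 0.0109), did not pass either (adjusted p of the difference 0.0974). Hamp and Enho fell in both, Hamp by 4.77 in GF and 1.62 in ConvR mice, Enho by 2.58 and 4.79 on the log2 scale (adjusted p of the difference 0.171 and 0.118). The ConvR value of Hamp did not pass without ConvR chow 1 and 2 (-2.13 ± 0.60, adjusted p = 0.0816).

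**Figure D5:**
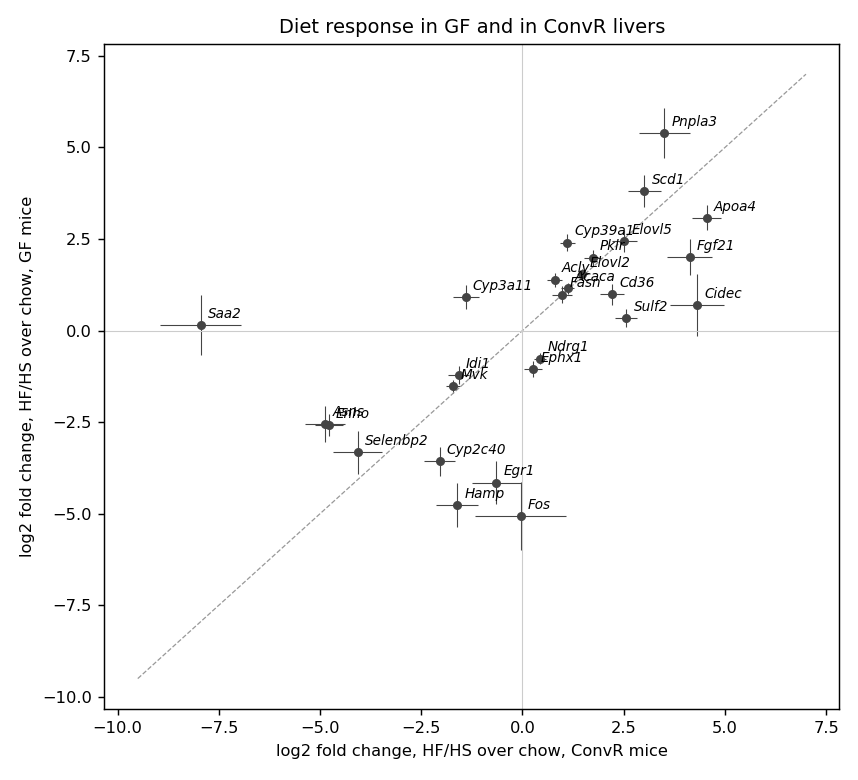
Log2 fold changes of HF/HS over chow in GF mice (vertical) and in ConvR mice (horizontal) for named genes, with bars of 1 SE in each direction and a dashed line of equal change. Scd1, Elovl5 and Pklr sit near the line, and Saa2, Cidec, Hamp, Egr1 and Cyp3a11 lie away from it, without passing the adjusted test of the difference.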

How the data were processed

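Liver RNA of 15 mice in 5 groups of 3, read from the sample titles, was sequenced from stranded mRNA libraries. Per the submitters' processing notes, Bowtie2, RSEM 1.2.23 and the mouse build mm9 were used by the authors. The deposited expected counts are RSEM estimates per gene, not scaled between libraries, and the deposited TPM values were scaled by RSEM for length and depth within each library. RSEM divides reads among near-identical genes. The files of HF/HS GF mice 2 and 3 list genes in another row order, without trailing zeros, and were matched by symbol. Whether these 2 libraries were processed separately is not given. Both are in the HF/HS group, so a processing difference and a diet effect could not be fully told apart.

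Expected counts were rounded and fitted with edgeR 4.0.16 (R 4.3.3): filterByExpr at a minimum count of 10, TMM scaling, a mean for each of the 5 groups over all 15 libraries (10 residual degrees of freedom, biological coefficient of variation 0.149), and two-sided quasi-likelihood tests with Benjamini-Hochberg adjustment over 12377 of 20325 genes, called at 0.05. The SE of a log2 fold change was taken as its size divided by the root of the test's F value. Between mice of a group the counts differed by more than sampling noise, with a chi-square per gene of 7.19 to 102 in the GF groups. On simulated counts with 12297 genes tested, this fit recovered 77 of 100 changes of 2-fold and 98 of 100 of 4-fold, with 14 false calls. The simulated counts held no library that stood apart and no trend on gene length. They therefore cannot give the rate of false calls in these data. Alternatives were other scalings and filters, DESeq2 1.42.0, limma 3.58.1 (voom, voom with sample weights, and a trend on log2(TPM + 1)), the GF or ConvR pair alone, a replicate block, removal of a lowess trend of fold change on gene length (span 0.5), a fold change of at least 2, and libraries left out.

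Genes were named by rule: the 12 largest called changes each way averaging 2 CPM or more and with groups that did not overlap, predicted and small RNA genes apart, up to 4 members with the smallest adjusted p from each of 49 lists, and 23 set genes. The members and lists were chosen with earlier results of these data known. Promoter windows are from RefSeq, build GRCm38.p6, and no coordinates of the mm9 files were used. A few genes that the rule names are not reported here.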

Additional observations from a re-analysis of the deposited data

How the results depend on the processing

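Of the values of named genes under the alternatives, 4340 kept their side of the threshold, 94 newly passed and 611 no longer passed. Keeping a side does not mean keeping a direction for genes without a call. The GF diet count of 1182 was 623 on TPM, 259 in the GF libraries alone, 660 with the length trend removed, 193 at a fold change of at least 2, and 301 to 1440 with 1 library left out. It was 18 without HF/HS mice 2 and 3 together, which leaves 1 HF/HS mouse, assumed to vary like the others. The ConvR diet count of 1802 was 3238 without normalization factors, 2816 with voom sample weights, 6100 on TPM, 841 in the ConvR libraries alone, 427 at a fold change of at least 2, 984 to 2597 with 1 library left out, and 344 without ConvR chow mice 1 and 2 together. The difference between GF and ConvR effects called 6 genes without normalization factors, 2 without a filter, 11 at a minimum count of 50, 150 with DESeq2, 286 with voom sample weights, 1192 on TPM, and 0 to 436 with 1 library left out, the most without ConvR chow mouse 3. The cause of these shifts was not tested, except that smaller fits have fewer samples. Replicate numbers did not pair the GF mice: deviations of same-numbered mice correlated at -0.0209, -0.00686 and -0.0284. With a replicate block the counts were 1000 in GF mice, 1617 in ConvR mice and 0 for the difference. Low counts limit Cyp2b10, Fosb, Pnpla3, Cidec and Fgf21.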

Other observations

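Other genes whose diet effects in GF and ConvR mice lay furthest apart by p, chosen after their values were seen, missed the threshold at the same adjusted p of 0.0503. Orm2, an acute phase orosomucoid, had a log2 fold change of -0.06 in GF mice and -6.46 in ConvR mice. Fetub, a secreted liver protease inhibitor, had -0.04 and -0.89, and Smo, the Hedgehog signal transducer, -0.04 and -1.14. Gsdmd, the pore-forming gasdermin, had 0.15 in GF mice and -0.82 in ConvR mice, and Utp14b 0.28 and -0.74.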
